A study of Mus musculus with 6 samples.

Results

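Mouse embryonic stem cells transfected with the siRNA called p/CIP siRNA 1 were compared with cells that received pooled non-specific siRNAs. The comparison holds 4 of the study's 6 arrays, chosen by their titles: 2 arrays with p/CIP siRNA 1 and 2 with control siRNA. The other 2 arrays carry p/CIP siRNA 2, aimed at the same gene, and served as a second knockdown to set beside the first. All cells were of the E14 embryonic stem cell line, grown adherent, with no other genetic change or treatment in the labels, and total RNA was hybridised with 1 array for each sample. The labels give a replicate number but do not say that replicates were separate cultures, so p-values measure the spread between these arrays, which may be technical. Each array gave a log2 value for 35556 probe sets. Probe sets with a single gene symbol, taking the brightest for each symbol, left 19938 genes.

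p/CIP is the product of Ncoa3, also called SRC-3 or AIB1, a member of the p160 family of nuclear receptor coactivators with Ncoa1 and Ncoa2. These proteins bind ligand-occupied or constitutively active nuclear receptors through leucine-rich motifs and bring in histone acetyltransferases such as p300 and CBP and the arginine methyltransferase CARM1. In mouse embryonic stem cells Ncoa3 is known as a coactivator of the orphan receptor Esrrb, which with Nanog, Klf4, Tbx3 and Nr0b1 belongs to the transcription factor network of the naive pluripotent state.

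Defining stem cell markers were measured in every sample, on a scale that ran from 2.69 to 14.6. Pou5f1 read 12.91 and 12.8 with control siRNA and 12.81 and 12.68 with siRNA 1. Sox2 read 12.54 and 12.35 against 12.36 and 12.2, and Utf1 13.31 and 13.34 against 13.27 and 13.3. The groups overlapped for Pou5f1 and Sox2, and for Utf1 both siRNA 1 arrays lay just below both controls (-0.04). Of the other markers in the set, Esrrb, Zfp42, Nanog and Tdgf1 also had both siRNA 1 arrays below both controls. Their changes were -0.49, -0.47, -0.34 and -0.16. Dppa5a had both arrays above both controls, at 0.09. Array medians over genes lay between 7.77 and 7.84. The second siRNA 1 array had the narrowest spread, with an interquartile range of 3.13 where the remaining 5 ranged from 3.33 to 3.45. Its Pearson correlation across genes averaged 0.9938 with them, and theirs 0.9956 to 0.9969. When genes were split into 10 equal groups by level, the median gene on that array was 0.11 to 0.2 above the control mean in the 5 dimmest groups and 0.07 to 0.09 below it in the 4 brightest, while the first siRNA 1 array stayed between -0.03 and 0.02. Several list medians below are also given for each siRNA 1 array separately.

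**Figure D1:**
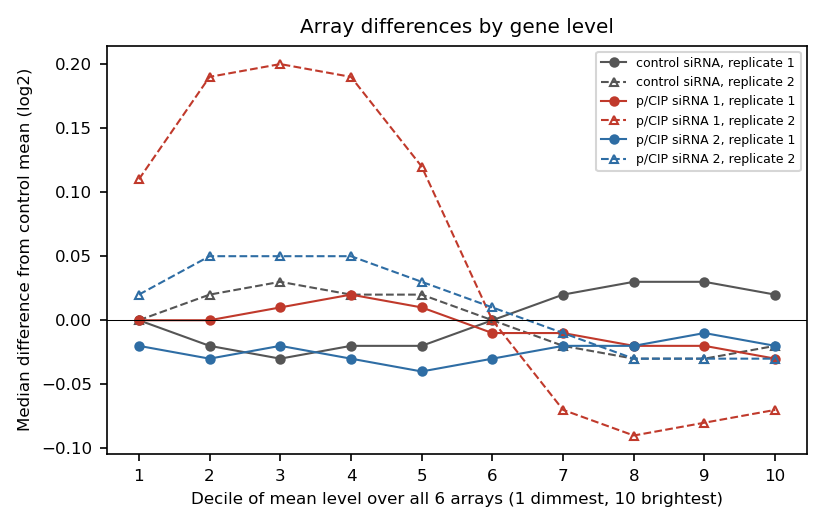
Median difference of each array from the control mean (log2, vertical axis) in 10 groups of genes ordered by mean level over all 6 arrays (horizontal axis, 1 dimmest). The line of the second siRNA 1 array reaches 0.2 in the third group and -0.09 in the eighth; the first siRNA 1 array stays between -0.03 and 0.02.

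With siRNA 1, 14 genes fell and no gene rose past an adjusted p of 0.05. The 14 were Ncoa3 itself, the orphan receptor gene Nr0b1, the activin subunit gene Inhbb, the netrin gene Ntn1, and Porcn, Necab1, H2-M5, Islr2, Dpp4, Ppp6c, Myd88, Crip2, Samm50 and Ube2q2. Their log2 changes ran from -1.49 to -0.76, and all 14 had the same adjusted p of 0.0452. The test was limma's moderated linear model over the 6 arrays, adjusted by Benjamini-Hochberg over all genes. Lower calls made up 0.0702% of the 19938 genes and higher calls 0.0%. At an unadjusted p under 0.05, 1270 genes were lower and 1152 higher, and the smallest adjusted p of a higher gene was 0.088. In size, 15 genes were lower by 2-fold or more and none higher, while 148 were lower and 22 higher by 1.5-fold or more. The median change over all genes was 0.02, with 44.5% of genes below control. Both siRNA 1 arrays lay below both control arrays for 4093 genes, or 20.5%, and above both for 4560, or 22.9%. These shares were taken without rescaling and mix dim and bright genes. The second siRNA 1 array shifted those in opposite directions, so the shares are a rough baseline for lists of bright genes.

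The 14 calls lie close to the threshold. With the replicate number added to the model as a block, all 14 remained and the counts became 192 lower and 49 higher genes, 0.963% and 0.246% of those tested. Without the first control array, the second control array, or either siRNA 2 array, no gene passed. Without the second siRNA 1 array, 2 genes passed and Ncoa3 was the only one of the 14 among them; without the first, 248 lower and 189 higher genes passed. All 14 kept their direction in each of these fits. Below, a second adjusted p "with the block" is printed where it changes a call.

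**Figure D2:**
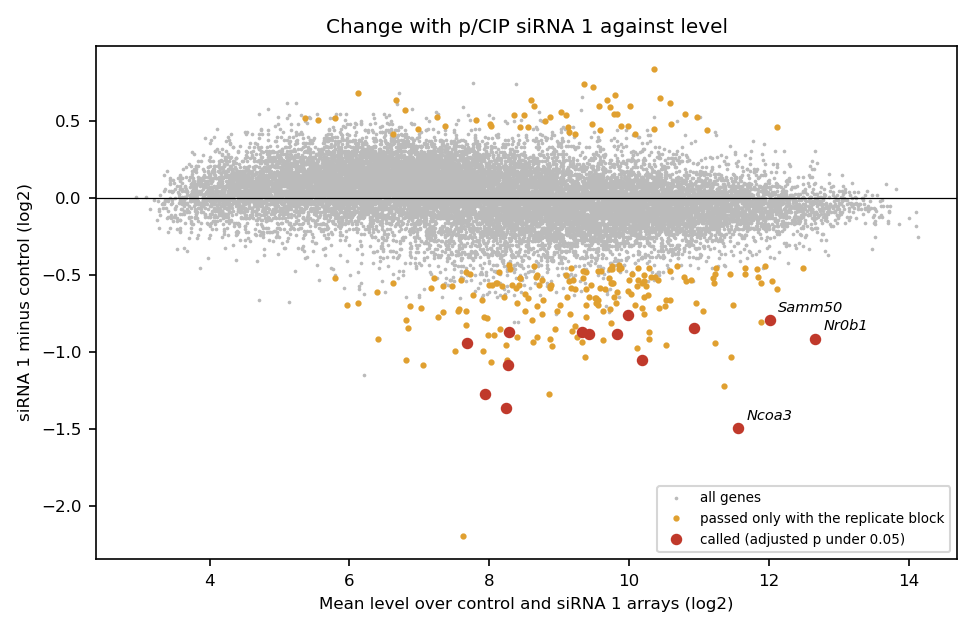
Change with siRNA 1 (siRNA 1 mean minus control mean, log2, vertical axis) against mean level over the 4 arrays (log2, horizontal axis), with 1 point for each of 19938 genes. The 14 called genes, in red, lie between -1.49 and -0.76; the genes that passed only with the replicate block, in orange, lie on both sides, and the lowest of them, the predicted gene Gm5662, is at -2.19.

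Ncoa3, the targeted gene, read 12.33 and 12.28 with control siRNA and 10.71 and 10.93 with siRNA 1. Neither siRNA 1 array came within a log2 unit of either control array. The change was -1.49 ± 0.111 (SE), with a 95% interval of -1.75 to -1.22, which leaves 35.7% of the control level. With siRNA 2 the gene read 10.71 and 10.92, and the difference between the siRNAs was 0.00 with an interval of -0.26 to 0.27.

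The other p160 coactivators and their partners showed no called member. Ncoa2 read 8.94 and 8.97 with control siRNA and 9.14 and 9.13 with siRNA 1 (0.18, adjusted p = 0.425), and Ncoa1 8.97 and 8.98 against 8.96 and 8.88 (-0.06, adjusted p = 0.758). Of 17 measured acetyltransferases, methyltransferases, Mediator subunits and other partners, 11 were below control and the median was -0.02, or 0.03 after quantile normalization. Ep300, which encodes p300, read 11.71 and 11.77 against 11.71 and 11.84, and Carm1 12.15 and 12.22 against 12.14 and 12.18. The groups overlapped for both genes. The lowest member was Kat2b, which encodes the acetyltransferase PCAF and read 8.95 and 8.62 against 8.55 and 7.9 (-0.56, adjusted p = 0.402). Med1, a Mediator subunit that binds nuclear receptors, had both arrays below both controls at 11.05 and 11.02 against 11.19 and 11.28 (-0.2, adjusted p = 0.398).

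Nr0b1 was the only nuclear receptor gene among the 14 calls. It encodes DAX1, an orphan receptor without a DNA-binding domain that is abundant in mouse embryonic stem cells. It read 13.18 and 13.05 with control siRNA and 12.23 and 12.18 with siRNA 1, a change of -0.91 ± 0.084 (SE) that left 53.1% of the control level. It stood at 12.3 and 12.26 with siRNA 2. Nr0b1 is shown here with its promoter, since Esrrb and other orphan receptors bind sites built on AGGTCA. The sequence runs from 250 bases before to 50 bases after the RefSeq start (GRCm38.p6), chrX:86191525-86191824, plus strand, with the AGGTCA match in capitals, at -126 to -121 from the start.
Nr0b1 promoter: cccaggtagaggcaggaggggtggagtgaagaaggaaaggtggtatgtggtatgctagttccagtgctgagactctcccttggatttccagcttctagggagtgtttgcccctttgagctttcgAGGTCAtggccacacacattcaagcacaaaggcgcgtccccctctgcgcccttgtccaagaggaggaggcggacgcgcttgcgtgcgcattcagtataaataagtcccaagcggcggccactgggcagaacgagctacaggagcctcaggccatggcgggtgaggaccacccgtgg

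Promoters were found for 10 of the 14 genes, 14 promoters in all, and AGGTCA was present on either strand in 3 of them, those of Nr0b1, H2-M5 and Samm50. Among 19177 promoters of measured genes of the same length, 14.2% held it. The longer match TCAAGGTCA, the site form of Esrrb and Nr5a2, which contains AGGTCA, was in none of the 14 and in 0.297% of all. At so low a share, 14 promoters are too few for its absence to mean anything. A match is a run of letters and not a measured site.

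Of 25 orphan receptors and corepressors measured, Nr0b1 included, 9 were below control and 16 above. The median was 0.05, with -0.01 on the first siRNA 1 array and 0.08 on the second. Esrrb read 11.99 and 11.82 with control siRNA and 11.48 and 11.35 with siRNA 1 (-0.49 ± 0.104 SE, adjusted p = 0.193, 0.0384 with the block). Nr5a2, the liver receptor homolog LRH-1, read 10.65 and 10.44 against 10.22 and 9.78 (-0.54, adjusted p = 0.287). Neither gene's groups overlapped. Hdac3, the histone deacetylase of the corepressor complex, read 12.02 and 12.04 against 12.11 and 12.04. Among 21 ligand-regulated receptors the median was 0.03, and -0.03 after quantile normalization, and no member passed in either fit. The smallest p there belonged to the thyroid hormone receptor gene Thrb, at 5.44 and 5.54 against 5.81 and 6.07 (0.45, adjusted p = 0.222). The retinoid receptor genes Rxra and Rarg both had siRNA 1 arrays below both controls, at -0.3 and -0.25, with adjusted p of 0.292 and 0.409.

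Among genes of core and naive pluripotency, 34 of 40 measured were below control, against 44.5% of all genes. Both arrays were below both controls for 26, or 65.0% of the list against 20.5% of all genes. The list is bright, with a median control level of 11.32 against a median gene level of 7.81. These shares were taken without rescaling. The list's members were chosen with earlier results of these data known, so the shares can reflect that choice. The median was -0.2 over both arrays, -0.15 on the first and -0.3 on the second, and -0.14 after quantile or cyclic loess normalization. Nr0b1 was the called member, and 10 of the 40 passed lower with the block, where 0.963% of all genes did. The siRNA 2 arrays, read against the same controls, gave a median of -0.17.

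The members that passed with the block are mostly transcription factors and surface proteins of naive cells. Klf4, a Krüppel-like factor, read 10.7 and 10.47 with control siRNA and 9.92 and 9.74 with siRNA 1 (-0.75 ± 0.129 SE, adjusted p = 0.138, 0.0214 with the block). Tbx3, a T-box factor, read 10.84 and 10.61 against 9.78 and 9.94 (-0.87, adjusted p = 0.0688, 0.0328 with the block). Prdm14, a regulator of DNA methylation in naive cells, read 8.83 and 8.34 against 8.0 and 7.46 (-0.85, adjusted p = 0.237, 0.035 with the block). In all of these genes the lower control array was still above the higher siRNA 1 array. Jam2, a junctional adhesion molecule, read 12.13 and 11.82 against 11.02 and 10.87 (-1.03, adjusted p = 0.0688, 0.0183 with the block). Kit, the stem cell factor receptor, read 9.73 and 9.57 against 8.79 and 8.84 (-0.83, adjusted p = 0.0552, 0.0228 with the block). Zfp42, also called Rex1, was at -0.47 and the lysosomal mannosidase gene Manba at -0.52, with block p of 0.0421 and 0.0391.

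The core factors and several abundant markers were closer to control. Nanog read 13.05 and 12.89 with control siRNA and 12.7 and 12.55 with siRNA 1 (-0.34, adjusted p = 0.291, 0.0686 with the block), and these groups did not overlap. Klf2 was at -0.32, and Tfcp2l1 read 11.91 and 11.72 against 11.56 and 11.41 (-0.33). The change was -0.12 for Pou5f1 with an interval of -0.33 to 0.1, -0.17 for Sox2 with -0.41 to 0.08, and -0.01 for Klf5. Dppa5a read 13.62 and 13.66 against 13.77 and 13.68. The intervals of Pou5f1 and Sox2 do not exclude a difference of the size seen for Klf2.

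The enzymes that add or remove DNA methylation divided by member. Tet2, a cytosine dioxygenase, read 11.18 and 10.83 with control siRNA and 10.28 and 9.82 with siRNA 1 (-0.95 ± 0.184 SE, adjusted p = 0.165, 0.0214 with the block). Its paralog Tet1 read 12.82 and 12.88 against 12.83 and 12.9, so its groups overlapped. Over the 13 measured enzymes and readers the median was 0.01, with Tet2 the only member passing with the block. Dnmt3a, Dnmt3b and Dnmt3l, the de novo methyltransferases and their cofactor, were at -0.13, -0.01 and 0.15.

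The called genes outside the receptor network included several that encode secreted or surface proteins. Inhbb, the beta-B subunit shared by activin B and inhibin B, read 8.73 and 8.42 with control siRNA and 7.28 and 7.33 with siRNA 1, a change of -1.27 ± 0.112 (SE). Ntn1, which encodes the secreted guidance protein netrin 1, read 9.85 and 9.86 against 9.04 and 8.91 (-0.88 ± 0.085). Porcn, the acyltransferase that attaches the lipid required for WNT secretion, read 10.31 and 10.2 against 9.32 and 9.44 (-0.88 ± 0.088). In none of these did the groups overlap. Islr2, a leucine-rich repeat membrane protein of neurons, read 8.19 and 8.11 against 7.19 and 7.24 (-0.94). Dpp4, a cell surface peptidase, read 8.76 and 8.66 against 7.86 and 7.82 (-0.87). H2-M5, a non-classical class I histocompatibility gene, read 8.93 and 8.68 against 7.82 and 7.64 (-1.08). Necab1, an EF-hand calcium-binding protein, showed the largest change after Ncoa3, from 9.04 and 8.81 to 7.48 and 7.64 (-1.36 ± 0.109), which left 39.0% of the control level.

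**Figure D3:**
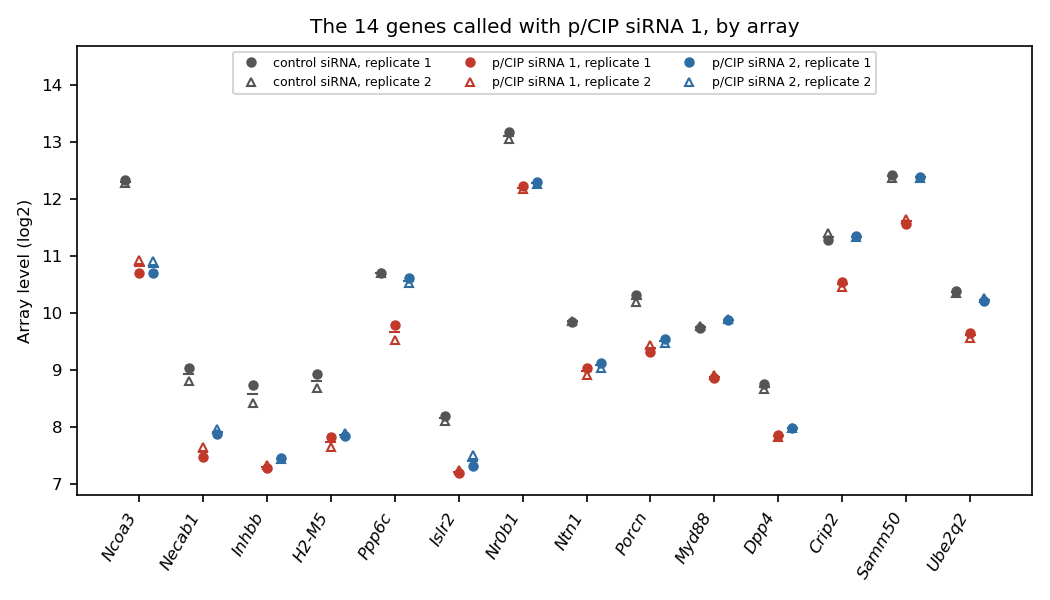
Log2 array level (vertical axis) of the 14 called genes on all 6 arrays, with circles for replicate 1, triangles for replicate 2 and a short bar at each group's mean. For all 14 genes both siRNA 1 arrays (red) lie below both control arrays (grey); the siRNA 2 arrays (blue) lie near siRNA 1 for 9 genes and near control for Ppp6c, Myd88, Crip2, Samm50 and Ube2q2.

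Around Inhbb, the activin, Nodal and TGF-beta pathway had 15 of 26 measured members below control and a median of -0.08. Both arrays were below both controls for 10 members, or 38.5%, against 20.5% of all genes. Of the ligands, Tgfb2 read 8.08 and 8.56 against 7.55 and 7.96 (-0.56, 0.0344 with the block), while Nodal read 11.31 and 11.23 against 11.61 and 11.37 (0.22). Inhba, the other activin beta subunit, read 6.8 and 7.07 against 6.78 and 7.19, so its groups overlapped. The co-receptor Tdgf1 was at -0.16, the transducers Smad2, Smad3 and Smad4 at -0.21, 0.16 and -0.1, and the Nodal inhibitors Lefty1 and Lefty2 at 0.22 and -0.1. None of these passed with the block, except Tgfb2.

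The WNT pathway around Porcn had 24 of 58 members below control and a median of 0.03. The other member that passed with the block was Sfrp1, a secreted WNT antagonist, at 10.31 and 9.87 with control siRNA and 9.29 and 9.06 with siRNA 1 (-0.92, adjusted p = 0.136, 0.0261 with the block). Lef1, a nuclear effector of the pathway, had both arrays above both controls at 10.31 and 10.2 against 9.8 and 9.89 (0.41, adjusted p = 0.188, 0.0689 with the block). Axin2 and Sp5, known targets of the pathway, were at 0.08 and -0.02. Wls, the carrier that moves lipidated WNT proteins to the surface, was at -0.02 with overlapping groups.

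Hedgehog genes gave a median of 0.01 over 16 members, with Gli2 as the member passing with the block. Gli2, a zinc-finger effector of the pathway, read 9.59 and 9.48 against 8.73 and 8.85 (-0.75 ± 0.09 SE, adjusted p = 0.0662, 0.029 with the block). Hhip, a membrane antagonist, read 6.97 and 6.66 against 6.19 and 6.22 (-0.61, adjusted p = 0.173, 0.0511 with the block). The receptor gene Ptch1 read 11.64 and 11.67 against 11.7 and 11.61, and Gli1, like Ptch1 a target of the pathway, 10.11 and 10.13 against 9.99 and 9.96 (-0.15). Smo, the signal transducer, was at 0.26 with both arrays above both controls.

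For the guidance molecules, Ntn1 and Islr2 were the called members, and no other member of 35 measured passed in either fit. The list's median was 0.08, with 22 members above control and 14, or 40.0%, with both arrays above both controls, against 22.9% of all genes. The netrin receptor genes Neo1 and Unc5b, at 0.22 and 0.15, lay above control, and Dcc was at 0.04. Nrp2 and Epha4, receptors for semaphorins and ephrins, both had siRNA 1 arrays below both controls, at -0.31 and -0.29, with adjusted p of 0.275 and 0.306.

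Of 15 class I antigen presentation genes, H2-M5 was the only member that passed in either fit, and the list's median was 0.08. Tap1, a peptide transporter, read 8.36 and 8.33 with control siRNA and 8.69 and 8.77 with siRNA 1 (0.38, adjusted p = 0.208), and B2m, the shared light chain, 10.47 and 10.46 against 10.45 and 10.49.

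The receptor kinase, Ras and PI3K-AKT list had 19 of 28 members below control, with both arrays below both controls for 15, or 53.6%, against 20.5% of all genes. Its median was -0.05, and 0.0 after quantile normalization. Besides Kit, 3 members passed lower with the block, where 0.963% of all genes did. These counts include Pdk1, which does not encode the PI3K-AKT pathway kinase of that name. Eras, a constitutively active Ras protein of embryonic stem cells, read 8.82 and 8.61 against 8.02 and 7.51 (-0.95, adjusted p = 0.157, 0.0242 with the block). Mras read 10.61 and 10.31 against 9.97 and 9.87 (-0.55, adjusted p = 0.195, 0.0439 with the block), and its dimmer probe set gave -0.87. The Pdk1 symbol belongs to the pyruvate dehydrogenase kinase and read 10.59 and 10.49 against 9.98 and 9.67 (-0.71, adjusted p = 0.162, 0.029 with the block). The kinase and phosphatase core was nearer to control, with Pik3ca at 0.0, Akt1 at -0.05 and Mtor at -0.06.

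In the LIF pathway, which sustains self-renewal in culture, no member of 18 passed in either fit and the median was 0.06. Lifr, the ligand-binding receptor, read 9.96 and 9.95 against 9.62 and 9.44 (-0.42, adjusted p = 0.184, 0.0604 with the block), while its partner Il6st read 10.74 and 10.69 against 10.73 and 10.71. Stat3, the transducer, had both arrays above both controls (0.19, adjusted p = 0.406), and its feedback target Socs3 was at -0.08. In the BMP list 16 of 22 members were above control with a median of 0.12, which was 0.03 on the first siRNA 1 array and 0.24 on the second. Both arrays were above both controls for 8 of them, or 36.4%, against 22.9% of all genes. Bmp4 read 12.57 and 12.53 against 12.24 and 12.22 (-0.32, adjusted p = 0.238), and the target genes Id1 and Id3 lay on opposite sides of control at 0.31 and -0.35.

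No gene passed the threshold upward without the block. The nearest was Fosl1, a FOS-family transcription factor downstream of ERK, which read 8.86 and 9.11 with control siRNA and 9.7 and 9.75 with siRNA 1 (0.74 ± 0.101 SE, adjusted p = 0.088, 0.029 with the block). With siRNA 2 it read 9.03 and 9.06, between the controls. Ahnak2, a large PDZ-domain protein, read 9.09 and 9.14 against 9.86 and 9.82 (0.72, adjusted p = 0.0894, 0.0319 with the block), and its dimmer probe set gave 0.9. The largest of the rises that passed with the block was Dsp, the desmosomal plaque protein desmoplakin, at 9.79 and 10.09 against 10.68 and 10.89 (0.84, adjusted p = 0.128, 0.0183 with the block). In all of these genes both siRNA 1 arrays were above both controls. Sdc4, a heparan sulfate proteoglycan, was at 0.55, Gpx2, a glutathione peroxidase, at 0.67, and Lzic at 0.5, with block p of 0.0391, 0.0391 and 0.0437. Arhgap8 was at 0.6, Pdzd2, a PDZ-domain protein, at 0.64, Gna15, a G protein alpha subunit, at 0.47 and Naprt, an enzyme of NAD synthesis, at 0.46. Their adjusted p ran from 0.115 to 0.13, and all passed with the block. Slc4a11 and Slc5a5, both membrane transporters, were at 0.65 and 0.62, and the kinase genes Nek7 and Hipk3 at 0.64 and 0.6; all of them passed with the block.

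The immediate early and ERK feedback genes, to which Fosl1 belongs, had 20 of 29 members above control and 14, or 48.3%, with both arrays above both controls, against 22.9% of all genes. The list's median was 0.12, with 0.08 and 0.09 on the single arrays and 0.14 after quantile or cyclic loess normalization. Fosl1 was the member that passed with the block. Dusp4 and Dusp1, phosphatases that switch off ERK and related kinases, were at 0.33 and 0.31, and Zfp36, a factor that destabilises messenger RNA, at 0.38, with adjusted p of 0.282, 0.341 and 0.176. Among 18 FGF ligands and receptors the median was 0.07, with -0.06 on the first siRNA 1 array and 0.12 on the second. Fgf5, a marker of the formative epiblast, read 8.3 and 8.35 against 8.78 and 8.66 (0.4, adjusted p = 0.187, 0.0689 with the block), and 9.24 and 9.28 with siRNA 2.

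The comparison of the 2 siRNAs with each other tests which of these changes were of different size with the second siRNA. No gene passed without the block, or 0.0%, although 670 were lower and 706 higher with siRNA 1 at an unadjusted p under 0.05, and the smallest adjusted p was 0.0851. With the block 14 genes were lower with siRNA 1 and 1 was higher, 0.0702% and 0.00502% of those tested. The 2 comparisons with control share the control arrays, so their changes are given side by side and no agreement between them is counted.

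The 14 genes called with siRNA 1 divided in their values with siRNA 2 at a limit of -0.5 set after the values were seen. For Ncoa3, Necab1, Inhbb, H2-M5, Islr2, Nr0b1, Ntn1, Porcn and Dpp4 the siRNA 2 changes ran from -1.49 to -0.73, and siRNA 1 minus siRNA 2 from -0.35 to 0.00. Necab1 had the widest of these differences, with 7.48 and 7.64 against 7.87 and 7.97 (-0.35, interval -0.61 to -0.09, adjusted p = 0.649). For Nr0b1 the interval was -0.28 to 0.12 and for Inhbb -0.4 to 0.14. For the other 5 genes the siRNA 2 changes ran from -0.14 to 0.14 and the differences from -1.0 to -0.62.

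Those 5 genes encode an adaptor, a membrane protein, a phosphatase, a LIM protein and a ubiquitin enzyme. Myd88, the adaptor of Toll-like and interleukin 1 receptors, read 9.73 and 9.77 with control siRNA, 8.86 and 8.91 with siRNA 1, and 9.87 and 9.9 with siRNA 2. The difference between siRNAs was -1.0 with an interval of -1.19 to -0.82 (adjusted p = 0.0851, 0.0395 with the block). Samm50, the central protein of the machinery that inserts beta-barrel proteins into the outer mitochondrial membrane, read 12.43 and 12.37, then 11.57 and 11.66, then 12.39 and 12.38 (difference -0.77, adjusted p = 0.146, 0.0479 with the block). For both genes the siRNA 1 arrays lay below all 4 other arrays.

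Ppp6c, the catalytic subunit of protein phosphatase 6, read 10.71 and 10.71 with control siRNA, 9.79 and 9.53 with siRNA 1, and 10.62 and 10.52 with siRNA 2 (difference -0.91, adjusted p = 0.208, 0.0479 with the block). Crip2, a LIM-domain protein of muscle and vessel cells, read 11.29 and 11.4, then 10.55 and 10.46, then 11.35 and 11.33 (difference -0.83, adjusted p = 0.146, 0.0479 with the block). Ube2q2, a ubiquitin-conjugating enzyme, read 10.39 and 10.36, then 9.65 and 9.57, then 10.21 and 10.26. Its difference was -0.62 (adjusted p = 0.208, 0.0728 with the block), and its dimmer probe set gave -0.79 against control, near the -0.76 of the brighter. Again the siRNA 1 arrays were the lowest 2 of the 6 for each gene. This order is not particular to the 5 genes. Of the 14 called genes, 12 had both siRNA 1 arrays below both siRNA 2 arrays, against 15.2% of all genes. All 14 were called for lying below control.

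In the lists around Myd88, Ppp6c and Samm50 no other member was called, and Chchd3 was the one further gene that passed with the block. Of 27 measured Toll-like receptor and NF-kB genes, 9 were below control with a median of 0.03, and Myd88 was the member that passed in either fit. The sister adaptors Tirap and Ticam1 were both at 0.03, and Traf6 at 0.01. Among 21 phosphatase 6, 2A and 4 subunits 18 were below control with a median of -0.06, and 7, or 33.3%, had both arrays below both controls, against 20.5% of all genes. The phosphatase 6 regulatory subunits Ppp6r1, Ppp6r2 and Ppp6r3 were at -0.01, -0.03 and 0.0, while Ppp4r2, a phosphatase 4 subunit, read 9.41 and 9.25 against 8.86 and 8.29 (-0.75, adjusted p = 0.216, 0.0675 with the block). Of 22 genes of mitochondrial sorting, import and cristae organisation 16 were below control with a median of -0.06, and 10, or 45.5%, had both arrays below both controls. Chchd3, a cristae protein that interacts with Samm50, read 11.56 and 11.38 against 11.1 and 10.94 (-0.45, adjusted p = 0.222, 0.0439 with the block), and Mtx1 and Mtx2, partners of Samm50 in the same complex, were at 0.1 and 0.02.

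The genes lower with siRNA 1 than with siRNA 2 in the fit with the block were Krt19, Myd88, Cnn1, Thbs1, Efemp1, Msrb1, Vat1, Acta1, Pdk1, Myl9, Rab27a, Samm50, Ppp6c and Crip2. Krt19, a type I keratin, read 9.26 and 9.5 with control siRNA, 8.27 and 8.57 with siRNA 1, and 9.48 and 9.92 with siRNA 2 (difference -1.29, adjusted p = 0.222, 0.0395 with the block). Vat1, a membrane protein of vesicles and mitochondria, read 11.83 and 11.58, then 10.82 and 10.71, then 11.68 and 11.57 (difference -0.86, 0.0479 with the block). Rab27a, a small GTPase of secretory vesicles, was at -0.73, and the methionine sulfoxide reductase gene Msrb1 at -0.79 in the same comparison. In each the siRNA 1 arrays were below the other 4. The gene higher with siRNA 1 was Jpt1, and its value with siRNA 1 was that of the controls: it read 11.65 and 11.56, then 11.65 and 11.57, then 10.95 and 10.78 (difference 0.74, adjusted p = 0.208, 0.0479 with the block). Arpc5, a subunit of the ARP2/3 actin nucleator, read 10.6 and 10.58, then 9.72 and 9.52, then 10.62 and 10.8. Its change against control was -0.97 (adjusted p = 0.0513, 0.0269 with the block), and its difference from siRNA 2, at -1.08, missed the threshold in both fits (adjusted p = 0.146, 0.0504 with the block). Among genes higher with siRNA 1, those of smallest p after Jpt1 and Fosl1 were Ptges, Saa1, Aadac and St3gal3, at 0.45, 0.54, 0.42 and 0.45 above siRNA 2, and none passed in either fit.

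Genes of smooth muscle, actin and the contractile apparatus had no member called without the block, and 5 of 24 passed lower with it, against 0.963% of all genes: Actc1, Acta2, Acta1, Cnn1 and Myl9. Of the 24, 18 were below control with siRNA 1 and 6 with siRNA 2, against 44.5% and 52.8% of all genes. The medians were -0.12 and 0.13, and the siRNA 1 median was -0.08 after quantile normalization. The list's median control level was 10.76, against a median gene level of 7.81, and the shares in this paragraph were taken without rescaling. Both siRNA 1 arrays were below both controls for 11 members, or 45.8%, against 20.5% of all genes. They were below both siRNA 2 arrays for 10, or 41.7%, against 15.2%.

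Acta2, smooth muscle alpha actin, read 11.75 and 12.16 with control siRNA, 10.23 and 11.25 with siRNA 1, and 11.92 and 12.54 with siRNA 2. Replicate 2 was the higher array in every group, and both siRNA 1 arrays were the lowest of the 6. The change was -1.22 ± 0.351 (SE, adjusted p = 0.289, 0.0324 with the block), and the difference from siRNA 2 was -1.49 (0.481, 0.0601 with the block). Cnn1, calponin 1, read 9.9 and 10.33, then 9.24 and 9.71, then 10.24 and 10.85 (-0.64, adjusted p = 0.395, 0.031 with the block; difference from siRNA 2 -1.07, 0.0451 with the block). Acta1, skeletal muscle alpha actin, read 10.58 and 10.99, then 9.83 and 10.32, then 10.73 and 11.42 (-0.71, adjusted p = 0.378, 0.0334 with the block). Actc1, cardiac alpha actin, read 9.48 and 9.93, then 8.64 and 8.96, then 9.36 and 9.65 (-0.9, adjusted p = 0.176, 0.0183 with the block). Myl9, a regulatory myosin light chain, read 10.12 and 10.66, then 9.6 and 10.04, then 10.31 and 10.83 (-0.57, adjusted p = 0.42, 0.031 with the block). In all 5 genes replicate 2 was the higher array in each group, and the siRNA 1 array of a replicate was below the control and siRNA 2 arrays of the same number.

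Thbs1, which encodes the matrix protein thrombospondin 1, showed the same order at 11.65 and 12.0, then 10.85 and 11.42, then 11.98 and 12.49 (-0.69, adjusted p = 0.356, 0.0309 with the block). Other contractile genes were nearer to control. Tagln, transgelin, read 10.95 and 11.27 against 10.48 and 11.08, so its groups overlapped (-0.32, adjusted p = 0.59), and the actin-binding genes Flna and Vcl were at -0.08 and -0.04. Myh9, a non-muscle myosin, was the highest member at 0.21. Srf, which encodes the serum response factor that drives muscle actin genes, read 10.72 and 10.75 against 10.66 and 10.77. Acta2 is also a marker of fibroblasts, and over the 15 fibroblast markers measured the log2 of their summed level was 14.09 and 14.25 with control siRNA, 13.8 and 14.01 with siRNA 1, and 14.17 and 14.35 with siRNA 2. Without Acta2, a sum added after the values were seen, the other 14 markers gave 13.77 and 13.86 with control siRNA. They gave 13.68 and 13.78 with siRNA 1, and 13.82 and 13.87 with siRNA 2. The control and siRNA 1 groups overlapped. Within each replicate number, the siRNA 1 sum was still below those of control and siRNA 2. The list's median was 0.05, with 9 of 15 above control, and it was -0.04 on the first siRNA 1 array and 0.1 on the second. Of the other fibroblast markers, Vim read 12.8 and 12.73 against 12.51 and 12.64, Thy1 7.58 and 7.73 against 7.82 and 8.15, and Twist1 7.36 and 7.58 against 7.82 and 7.78. The part of other cell types in the contractile values was not tested, and in bulk RNA fewer cells of a type and less RNA per cell cannot be told apart.

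**Figure D4:**
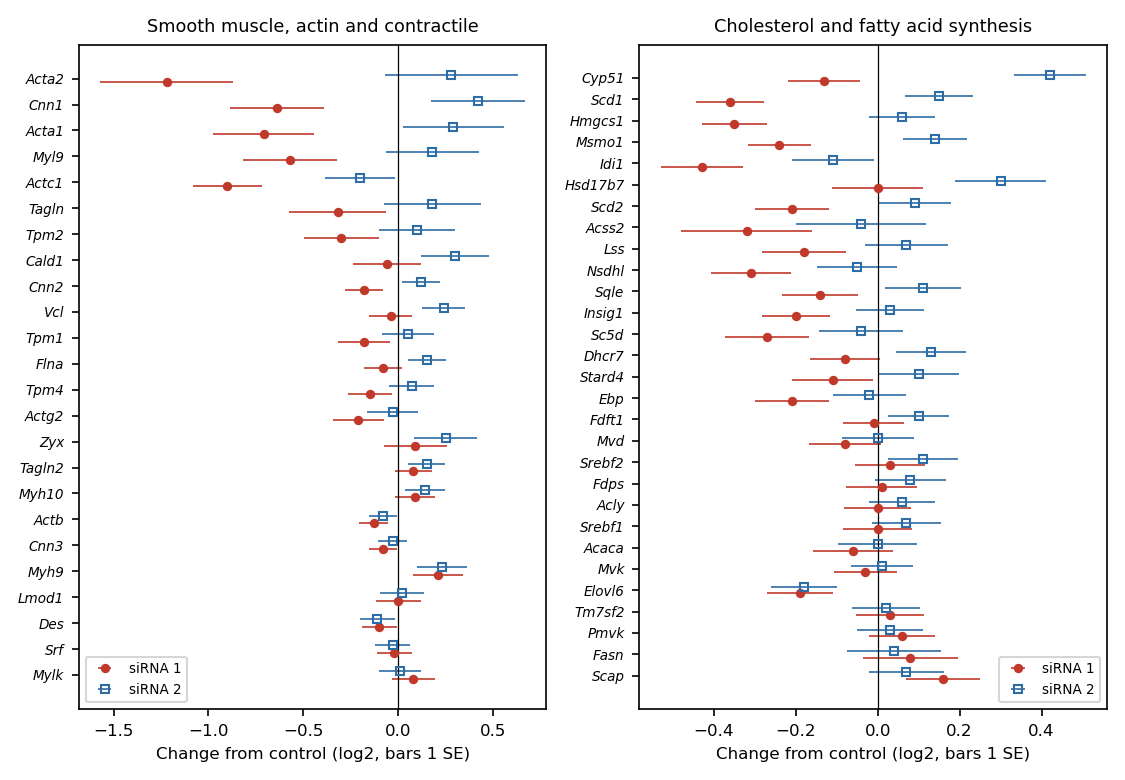
Change from control (log2, horizontal axis, bars 1 SE) of the measured contractile genes (left) and sterol and fatty acid synthesis genes (right), with filled red circles for siRNA 1 and open blue squares for siRNA 2. Rows are ordered by the difference between siRNAs; Acta2, Cnn1, Acta1 and Myl9 lie left of 0 with siRNA 1 and right of it with siRNA 2.

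The promoters of 3 of the 5 contractile genes that passed with the block are shown because they hold a CArG box, the motif of serum response factor, in capitals below. The motif was chosen after the values were seen and was read strictly, as CC, then 6 letters of A or T, then GG. It was in 6 of 22 promoters of the list, or 27.3%, and in 270 of 19177 promoters of measured genes, or 1.41%. Both strands were read, and a site that matched on both was counted once. The list holds Srf itself and muscle actin genes that its product drives. The higher share therefore goes with the choice of list and is not a result about siRNA 1. The other list members with the motif were Cnn2, Vcl and Srf, which did not pass in either fit. The windows of Acta2 and Cnn1 hold no exact match. The Acta2 window holds ccctatatgg and ccttgtttgg, each a single letter off the pattern, and such near matches were not counted. The RefSeq windows (GRCm38.p6) are chr2:114052826-114053125, minus strand, for Actc1, with the match at -47 to -38 from the start; chr8:123894726-123895025, minus strand, for Acta1, at -73 to -64; and chr2:156775214-156775513, plus strand, for Myl9, at -161 to -152.
Actc1 promoter: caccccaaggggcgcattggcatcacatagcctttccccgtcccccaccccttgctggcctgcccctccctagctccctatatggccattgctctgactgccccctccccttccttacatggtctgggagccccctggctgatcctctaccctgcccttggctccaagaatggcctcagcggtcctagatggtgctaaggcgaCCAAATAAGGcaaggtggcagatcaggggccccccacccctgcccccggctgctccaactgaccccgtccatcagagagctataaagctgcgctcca
Acta1 promoter: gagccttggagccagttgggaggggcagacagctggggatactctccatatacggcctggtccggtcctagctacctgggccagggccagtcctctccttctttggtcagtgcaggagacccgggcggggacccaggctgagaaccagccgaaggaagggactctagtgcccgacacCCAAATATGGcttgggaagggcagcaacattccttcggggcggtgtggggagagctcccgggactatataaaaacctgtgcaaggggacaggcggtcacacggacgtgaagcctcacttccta
Myl9 promoter: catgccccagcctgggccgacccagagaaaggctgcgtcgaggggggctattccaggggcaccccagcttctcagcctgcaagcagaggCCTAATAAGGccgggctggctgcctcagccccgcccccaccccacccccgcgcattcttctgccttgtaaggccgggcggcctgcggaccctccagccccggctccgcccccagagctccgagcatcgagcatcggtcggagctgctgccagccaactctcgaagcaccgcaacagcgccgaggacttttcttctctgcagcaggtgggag

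No gene of cholesterol and fatty acid synthesis passed in either fit, while most members lay below control with siRNA 1. Of 29 measured, 23 were below control with siRNA 1 and 7 with siRNA 2, against 44.5% and 52.8% of all genes, and the medians were -0.11 and 0.06. Both siRNA 1 arrays were below both controls for 15 members, or 51.7%, against 20.5% of all genes. They were below both siRNA 2 arrays for 18, or 62.1%, against 15.2%. The median difference between siRNAs was -0.21, against 0.03 over all genes. Hmgcs1, the synthase at the head of the mevalonate pathway, read 11.07 and 10.99 with control siRNA, 10.65 and 10.72 with siRNA 1, and 11.1 and 11.08 with siRNA 2 (-0.35, adjusted p = 0.208, 0.0755 with the block). Scd1, a fatty acid desaturase, read 11.18 and 11.2, then 10.87 and 10.8, then 11.4 and 11.28 (-0.36, adjusted p = 0.216). For both genes the siRNA 1 arrays were the lowest of the 6. Idi1, an isomerase of the same pathway, was the lowest member against control at -0.43, and Cyp51, a sterol demethylase, read 8.97 and 8.94, then 8.85 and 8.8, then 9.45 and 9.29. Srebf2 and Scap, which encode the sterol-regulated transcription factor and its escort, were at 0.03 and 0.16.

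Among cell cycle genes, 31 of 38 DNA replication and mitosis genes were below control, with a median of -0.1, which was -0.03 after quantile normalization, and none passed in either fit. Both arrays were below both controls for 20 of them, or 52.6%, against 20.5% of all genes. The list is bright, with a median control level of 11.5 against a median gene level of 7.81, and this share was taken without rescaling. Of 25 G1 cyclins, kinases and E2F factors, Ccnd2 was the member that passed with the block. Ccnd2, cyclin D2, read 9.77 and 10.02 with control siRNA and 9.07 and 9.39 with siRNA 1 (-0.66, adjusted p = 0.205, 0.0242 with the block). The E2F genes E2f3 and E2f8 had both arrays below both controls, at -0.4 and -0.27, with adjusted p of 0.289 and 0.281. Histone-modifying and remodelling genes had 33 of 44 below control with a median of -0.07 (-0.03 after quantile normalization), and Phf19, a Polycomb-associated protein, passed with the block at 8.58 and 8.48 against 7.85 and 7.94 (-0.64, adjusted p = 0.08, 0.0317 with the block). Suz12 and Mtf2, of the same Polycomb complex, were at -0.36 and -0.32.

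Adhesion genes moved in both directions in the fit with the block. Itga9, an integrin alpha subunit, read 9.72 and 9.49 against 8.89 and 8.6 (-0.86, adjusted p = 0.118, 0.0183 with the block), and Sdc4 10.56 and 10.5 against 11.11 and 11.04 (0.55, adjusted p = 0.115, 0.0391 with the block). Of 34 integrin, syndecan and matrix genes, 17 were below and 17 above control, and 2 in each direction passed with the block. Among 30 junction, cadherin and keratin genes, Jam2 and Krt19 were lower and Dsp was higher in that fit. The list's median was 0.08, with -0.02 on the first siRNA 1 array and 0.11 on the second.

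Stress, defence and housekeeping lists held no member that passed in either fit, except for Pdk1 in the hypoxia and glycolysis list. The medians were 0.05 for 26 p53 and apoptosis genes, -0.06 for 28 genes of the ATF4 and unfolded protein response and -0.05 for 34 cytosolic ribosomal proteins. The ribosomal and hypoxia medians turned to 0.01 after quantile normalization. The 27 interferon and double-stranded RNA response genes, which can respond to transfected RNA, had 13 below and 14 above control and a median of 0.01, which turned to -0.08 after quantile and -0.07 after cyclic loess normalization. Oas1a, a sensor of double-stranded RNA, read 7.51 and 7.78 against 7.02 and 7.22 (-0.52, adjusted p = 0.216), and Irf1 8.84 and 9.02 against 9.41 and 9.28 (0.42, adjusted p = 0.215). Of 13 small RNA machinery genes 11 were below control with a median of -0.08; Dicer1 was at -0.16 and Ago1 at -0.19.

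**Figure D5:**
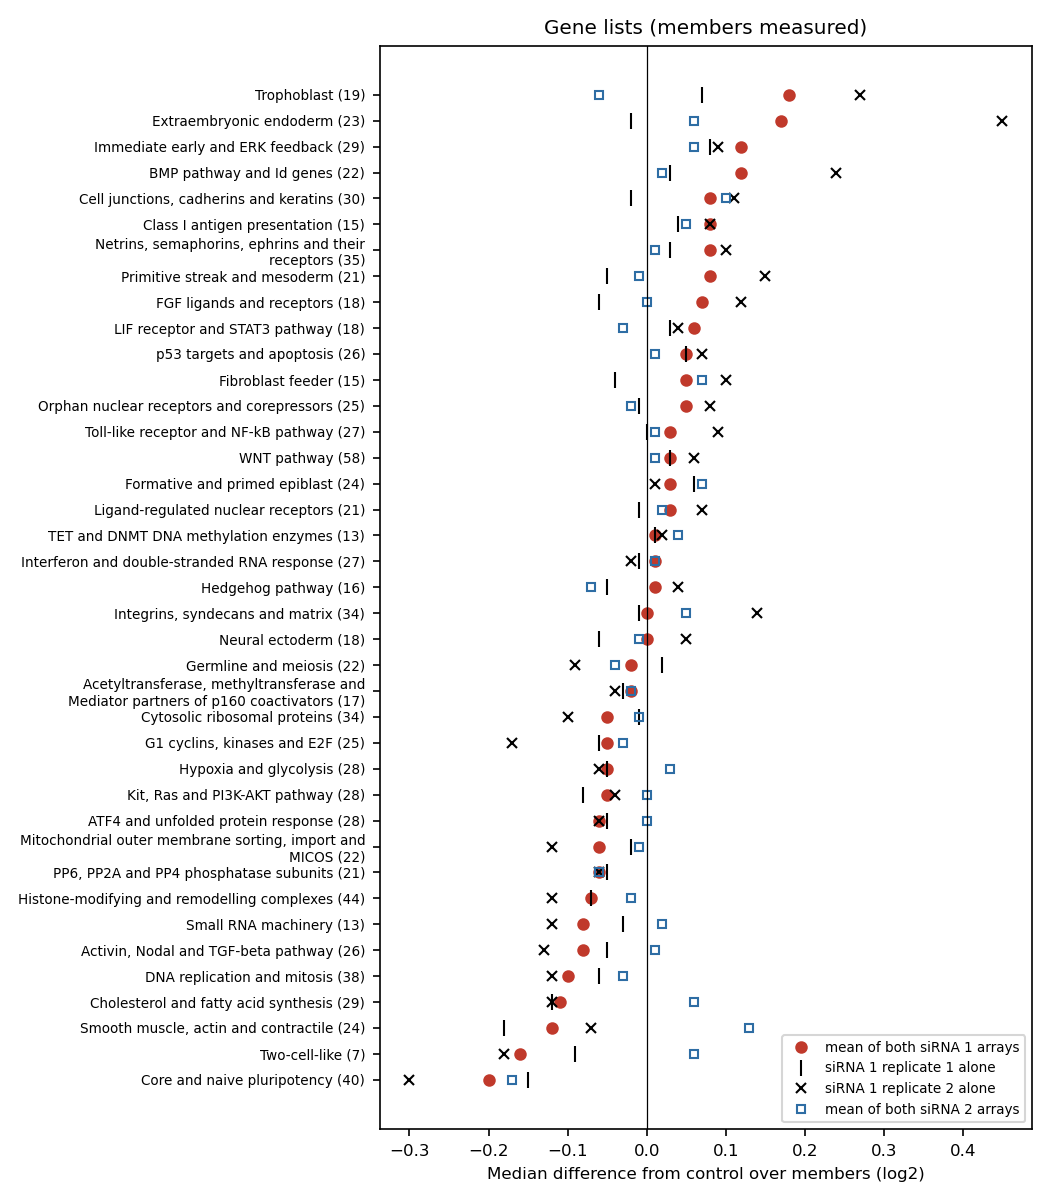
Median difference from control over the measured members of each gene list (log2, horizontal axis; number measured in brackets). Red circles use the mean of both siRNA 1 arrays, the bars and crosses the single siRNA 1 arrays and the blue squares siRNA 2; the pluripotency list is lowest at -0.2, and the crosses of the second siRNA 1 array lie farthest right, at 0.45, for extraembryonic endoderm.

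No marker of another cell type was called without the block. Trophoblast genes had 15 of 19 above control and a median of 0.18, which was 0.07 on the first siRNA 1 array and 0.27 on the second. Both arrays were above both controls for 9 of the 19, or 47.4%, against 22.9% of all genes. The log2 of their summed level was 14.79 and 14.9 with control siRNA and 14.79 and 14.95 with siRNA 1, so the groups overlapped. Ascl2, a trophoblast transcription factor, read 8.17 and 8.02 against 8.76 and 8.42 (0.5, adjusted p = 0.24, 0.0666 with the block). Extraembryonic endoderm genes had 20 of 23 above control and a median of 0.17, but -0.02 on the first siRNA 1 array and 0.45 on the second. Only 3 of the 23 had both arrays above both controls, or 13.0%, against 22.9% of all genes. Gata6, a factor that specifies this lineage, read 9.34 and 9.89 against 9.42 and 10.48, with replicate 2 the higher array in both groups. Lamb1, a basement membrane laminin, passed with the block at 9.51 and 9.98 against 10.02 and 10.41 (0.47, adjusted p = 0.426, 0.0439 with the block).

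Formative and primed epiblast genes had 13 of 24 above control and a median of 0.03. Zic5 and Zic2, zinc-finger factors of the epiblast and neural plate, read 9.66 and 9.59 against 9.1 and 9.17 (-0.48, adjusted p = 0.13, 0.0476 with the block) and 9.53 and 9.62 against 9.16 and 8.9 (-0.54, adjusted p = 0.173). The dimmer Zic5 probe set gave -0.17. Primitive streak and mesoderm genes had a median of 0.08 over 21 members, with -0.05 on the first siRNA 1 array and 0.15 on the second. Neural genes had a median of 0.0 over 18, with summed levels of 12.04 and 12.03 against 11.91 and 12.02. In the germline list Sycp3, a protein of the meiotic chromosome axis, read 8.75 and 8.05 against 7.83 and 6.99 (-0.99, adjusted p = 0.335, 0.0304 with the block), and 8.56 and 8.15 with siRNA 2. Of 7 measured genes of the 2-cell-like state, Tdpoz3 passed with the block at 7.64 and 7.54 against 6.77 and 6.25 (-1.08, adjusted p = 0.138, 0.0242 with the block).

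Outside the lists, the gene with the largest change that passed only with the block was the predicted gene Gm5662 at -2.19. Next was Calcoco2, an autophagy receptor, at 9.93 and 9.05 against 8.48 and 7.95 (-1.27, adjusted p = 0.216, 0.029 with the block). Its dimmer probe set gave -1.02. St8sia1, a sialyltransferase of ganglioside synthesis, read 8.71 and 8.41 against 7.41 and 7.59 (-1.06, adjusted p = 0.0662, 0.0334 with the block), and Cobl, an actin nucleator, 10.09 and 9.69 against 8.87 and 8.84 (-1.03, adjusted p = 0.08, 0.0242 with the block). Slc15a1, a peptide transporter, and Lrrc34 were at -0.99 and -1.05. The 192 lower genes of that fit had a median change of -0.64, and all had non-overlapping arrays; the 49 higher genes had a median of 0.53, and 48 had non-overlapping arrays. The brighter group lay above the median gene level of 7.81 for 174 of the lower and 39 of the higher genes.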

How the data were processed

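RNA from 6 samples was measured on 6 arrays. The deposited values are log2 expression values, by their range; the authors used Partek per the submitters' processing notes, and how background was corrected or arrays were scaled is unstated. The arrays' number limits the precision. Of 35556 probe sets, 21789 had 1 symbol in GEO's platform annotation, 1621 several and 12146 none listed; 999 genes had more than 1 probe set and were represented by the brightest. limma 3.58.1 (R 4.3.3; lmFit and eBayes, 3 residual and 3.84 prior degrees of freedom) was fitted to all 6 arrays with 1 coefficient a group, two-sided, with Benjamini-Hochberg adjustment over 19938 genes and no filter on low values. Array levels per probe set do not rank different genes.

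The labels give each group replicates 1 and 2. Deviations from the group means of same-numbered arrays correlated across genes at 0.464, 0.407 and 0.461, so the number was treated as a pairing and its block is printed where it changes a call. With 2 arrays a group this check is weak, and the pairing comes from these data, not from the labels. The correlations were taken without rescaling. In the third level group, replicates 1 and 2 stood at -0.03 and 0.03 with control siRNA, 0.01 and 0.2 with siRNA 1, and -0.02 and 0.05 with siRNA 2. In the eighth, replicate 2 was instead the lower array with each siRNA. Whether the correlations remain once this shift is scaled out was not tested.

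The naming rule took Ncoa3, the called genes, where a direction has no call the 10 of smallest p in it above the median level, up to 10 largest changes in each direction that passed only with the block, with no call between the siRNAs the 6 of smallest p in each direction, from every one of 40 gene lists at most 4 genes, ranked by p, and 12 stem cell or signalling genes; predicted genes and olfactory receptors were passed over. Members that the rule took from the lists and the text leaves out passed in neither fit. Other list members are named for their role, and Gm5662, Thbs1 and other exceptions were chosen after their values were seen. The members and the lists (1080 entries, 983 measured) were chosen with earlier results of these data known. Alternatives were another block, scaling, probe set rule, level filter and variance model, and leaving out each array. Promoters are RefSeq's; the planned search of protein sequences was not run.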

Additional observations from a re-analysis of the deposited data

How the results depend on the processing

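The 14 lower calls became 192 with the replicate block, 26 with array medians aligned, 36 after cyclic loess normalization, 73 among genes above the median level and 127 with a trended, robust prior. They became 0 with a block that splits the arrays by the lower and higher array codes of the descriptions, with only the 4 arrays of control and siRNA 1, without moderation, and over all probe sets; leaving out single arrays gave 0 to 248. Quantile normalization (20) and the mean of a gene's probe sets (17) stayed within 1.5 times. The 0 higher calls became 49 with the replicate block, 3 after cyclic loess, 1 with mean probe sets, 12 above the median level and 23 with the trended, robust prior, and 0 to 189 without single arrays. For siRNA 1 against siRNA 2, 0 lower calls became 14 with the replicate block, 1 with medians aligned, 4 above the median level and 22 with the trended, robust prior, and 0 higher calls became 1 with the block and 1 with that prior; leaving out single arrays gave 0 to 1 in each direction. The causes were not tested. All 14 genes were lower under every setting, and all were called with the replicate block, medians aligned, quantile, cyclic loess, mean probe sets and the trended, robust prior. Ncoa3 stayed at -1.49 and missed the threshold with the array code block (adjusted p = 0.184), with 4 arrays (0.155), over all probe sets (0.22) and without moderation (0.314); without single arrays its change was -1.6 to -1.38. Values near 0 changed sign: Jpt1 against control (0.01) was -0.01 with medians aligned and -0.04 to 0.05 without single arrays, Utf1 (-0.04) was 0.01 after cyclic loess, and Ncoa3 between siRNAs (0.00) was -0.02 with medians aligned and -0.11 to 0.11 without single arrays. Of 3678 recomputed values of named genes, 3359 kept direction and side of the threshold, 195 newly passed, 117 no longer passed and 7 reversed; of 640 list medians 96 moved. Medians that turned sign after quantile normalization were those of ribosomal proteins (-0.05 to 0.01), hypoxia and glycolysis (-0.05 to 0.01), ligand-regulated receptors (0.03 to -0.03), coactivator partners (-0.02 to 0.03) and the interferon response (0.01 to -0.08).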
